A study of Homo sapiens with 11 samples.

Results

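The 379 compact dense JMJD1C peaks of Kasumi-1 cells are the called peaks of 600 bp or less that nevertheless held 80 or more sequence tags. They were picked by length and tag number from 36191 deposited peaks, on chromosomes 1 to 22 of hg19, and make up 1.59% of the 23847 autosomal peaks of 600 bp or less (95% exact Clopper-Pearson interval 1.43% to 1.76%). The other 23468 compact peaks, with fewer than 80 tags, are the set against which they are described. The name fits the tag numbers better than the length, since 318 of the 379 were over 500 bp long and only 16 were 400 bp or shorter. The study sequenced 11 chromatin immunoprecipitation and input libraries of the acute myeloid leukaemia lines Kasumi-1, HL60, NB4 and THP-1, and 1 of them is described here: the Kasumi-1 library made with a home-made serum against the N-terminus of JMJD1C. Kasumi-1 is an established myeloblast line that carries the RUNX1-RUNX1T1 fusion. No treatment is given in the labels, and the other 10 libraries, with the inputs and the LYL1 libraries, were not analysed here.

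JMJD1C belongs to the KDM3 family of JmjC-domain proteins, whose members include demethylases of histone H3. It acts as a transcriptional coregulator that is brought to DNA by partner proteins, and in leukaemia with the RUNX1 fusion it has been described as a partner of the fusion protein. Chromatin immunoprecipitation with sequencing (ChIP-seq) crosslinks proteins to DNA, shears the chromatin, recovers fragments bound by the antibody and maps their ends, the tags. A factor held at one short stretch of DNA gives a narrow pile of tags around a single summit, whereas tags over several neighbouring stretches give a longer call. The caller used no input, and no list of hg19 regions that collect tags in any library was used here. Whether a peak would also be called in an input was not tested, and this applies above all to the densest peaks, of which 4 of the first 10 lay beside long stretches without peaks. No genome or annotation of hg19 was used here, so no gene is assigned to a peak and no sequence is shown.

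The library held 29330355 tags, of which 19897991 were left when the caller kept 1 tag per position. There is 1 library and no replicate, so no spread between replicates exists and no test was made. The intervals given reflect counting, or how peaks of this 1 library vary among themselves, and nothing else. Length and tags chose the peaks. Tags per kb, score, fold and summit come from the same tags and are given as descriptions.

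The 379 peaks held between 80 and 391 tags, with a median of 95 (quartiles 86 and 111). The compact peaks with fewer tags held a median of 22 (quartiles 15 and 31). Most of the dense peaks thus sat near the lower limit: 135 had 80 to 89 tags, 97 had 90 to 99, 80 had 100 to 119, and 20 had 150 or more. Their lengths ran from 227 to 600 bp with a median of 559 bp (quartiles 526 and 582 bp), against a median of 399 bp for the compact peaks with fewer tags. The share of compact peaks that were dense grew with the length class. It was 5 of 4530 up to 300 bp, 11 of 7318 from 301 to 400 bp, 0.642% (45 of 7009) from 401 to 500 bp, 3.68% (103 of 2798) from 501 to 550 bp and 9.81% (215 of 2192) from 551 to 600 bp. Together the dense peaks covered 205 kb and held 39209 tags, 6.29% of the tags in autosomal compact peaks.

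Tag density was 173 tags per kb in the median dense peak (quartiles 157 and 208), against 53.4 tags per kb in the median compact peak with fewer tags (quartiles 45.2 and 67.7). The lowest density among the dense peaks was 135 tags per kb and the highest 811. Of the 379, 61 were below 150 tags per kb, 212 lay from 150 to 200, 89 from 200 to 300, 8 from 300 to 400 and 9 above 400. The 2 sets overlap in density: 345 compact peaks with fewer tags, 1.47% of them, reached the lowest density of a dense peak, and 58 of them reached the dense median. Among the 4712 autosomal peaks of 601 to 2000 bp with 80 or more tags, the median was 131 tags per kb, and 1159 (24.6%) reached the dense median. One tag is allowed per position and strand, which caps the density a peak can show. The median dense peak filled 8.66% of the positions on both strands of its length, and the fullest filled 40.6%.

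**Figure D1:**
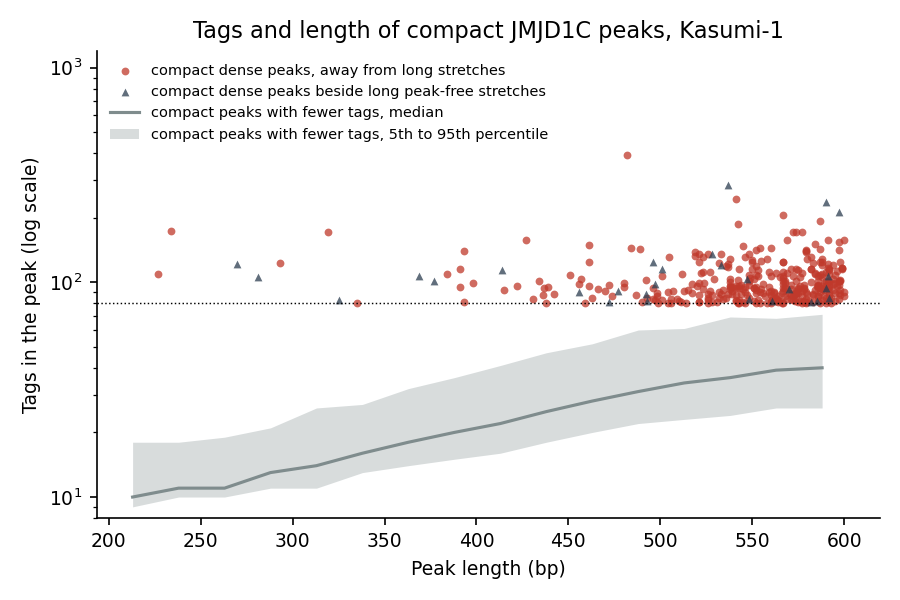
Tags in each compact dense peak (log axis) against its length in bp. Circles are peaks away from stretches of at least 3 Mb without any peak, triangles are peaks within 1 Mb of one, the line and band are the median and the 5th to 95th percentile of compact peaks with fewer tags, and the dotted line is the limit of 80 tags; most dense peaks crowd at 501 to 600 bp and a few short ones stand alone.

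The 10 peaks with the most tags per kb came from differing surroundings. The densest was chr2:33141255-33141736, with 391 tags in 482 bp (exact Poisson 95% interval 353 to 432 tags), 811 tags per kb and a fold enrichment, its summit over the local background, of 28.81. It also held the most tags of the 379. Its score of 3100 is the highest in the list, a value that was also reached among peaks of 601 to 2000 bp. Its summit lay 121.5 bp from the centre, so the pile was lopsided. Next came chr3:196625582-196625815, with 174 tags in 234 bp, or 744 tags per kb. The peak chr11:85194965-85195283 held 171 tags in 319 bp, or 536 tags per kb. These 3 lay more than 1 Mb from any stretch of at least 3 Mb without a peak, with their nearest other peaks 29.5, 30.1 and 144 kb away.

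The fourth, chr11:51584586-51585122, lay in another setting. It held 285 tags (253 to 320) at 531 tags per kb, within 1 Mb of a long peak-free stretch and 947 bp from the next peak, with a fold of 6.01. The signal around it was 2316 tags per 10 kb, the highest value recovered among the dense peaks. This signal is the local background less the peak's own tags, scaled from the remaining bases to 10 kb. Tags of nearby peaks count in it. The peak chr12:20704318-20704544 was the shortest of the 379, at 227 bp, and held 110 tags (485 tags per kb). The remaining 5 were chr9:72653052-72653592 with 245 tags (453 tags per kb), chr6:61913315-61913584 with 122 (452 tags per kb), chr17:33478076-33478368 with 123 (420 tags per kb), chr20:26189727-26190316 with 237 (402 tags per kb) and chr11:51571975-51572255 with 106 (377 tags per kb). Of the 10, 4 lay beside a long peak-free stretch, and 5 had no other peak within 20 kb. Their folds spanned 6.01 to 55.77. Over the 379 peaks, fold and density had a rank correlation of 0.34, both being made from the same tags. The median fold was 20.99 below 150 tags per kb and 29.05 from 200 to 300 tags per kb.

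Summits lay near the centre of the dense peaks. The summit was a median of 6.06% of the length from the centre (quartiles 2.47% and 10.3%, 95% order-statistic interval of the median 5.39% to 6.53%), or 32.5 bp. In compact peaks with fewer tags the median was 8.08% (7.95% to 8.21%). In 281 of 379 dense peaks (74.1%, exact interval 69.4% to 78.5%) the summit fell between 40% and 60% of the length, against 13810 of 23468 peaks with fewer tags (58.8%, 58.2% to 59.5%). Because the dense peaks are longer, peaks of 500 to 600 bp were also compared. There the median offset was 5.68% in 318 dense peaks and 8.28% in 4736 peaks with fewer tags, a difference of -2.61 percentage points (-3.31 to -1.97). The summit lay to the lower-coordinate side in 188 dense peaks (49.6%, 44.5% to 54.8%), so neither side was favoured beyond counting error. Whether the number of tags alone sets how central a summit is called was not tested.

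**Figure D2:**
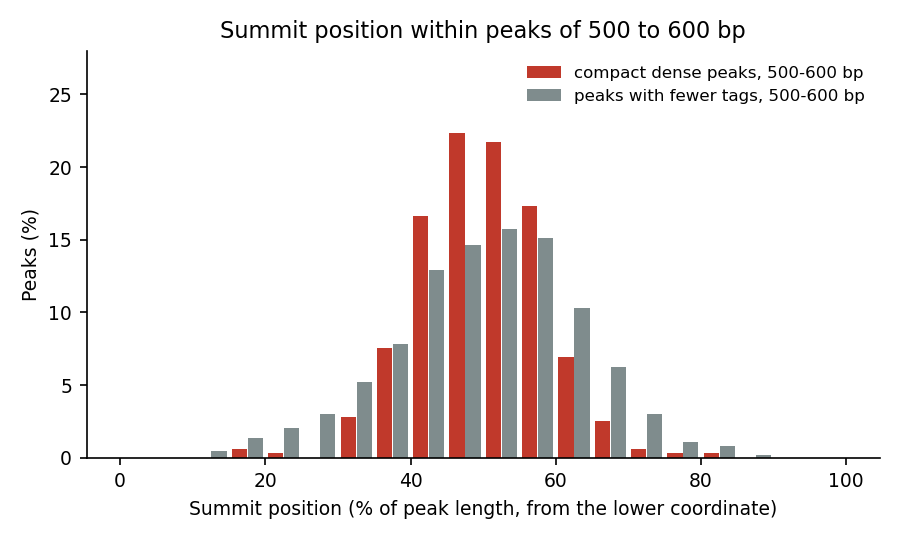
Share of peaks (%) by summit position, in bins of 5% of the peak length from the lower coordinate, for 318 compact dense peaks (left bars) and 4736 peaks with fewer tags (right bars), both of 500 to 600 bp. The dense peaks are more often between 40% and 60% and less often beyond 65%.

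The 3 dense peaks with the most off-centre summits had other peaks 95 bp, 2.04 kb and 6.25 kb away, against a median of 8.98 kb over the dense peaks. In chr2:133002839-133003424 (96 tags) the summit was 197.5 bp from the centre, 33.7% of the length. In chr11:48859295-48859800 (84 tags) it was 33.5% away, and in chr16:35228866-35229357 (88 tags) 30.6%. The signal around these 3 was 543, 480 and 318 tags per 10 kb, against a median of 113 over the dense peaks. Other off-centre peaks differed. The peak chr1:9965-10564 (30.4%) had another 574 bp away. The nearest peak to chr14:88237395-88237866 (25.7%) was 221 kb away, and the signal around it was 49.3 tags per 10 kb. A link of offset with distance or surround was not tested. Beside long peak-free stretches the median offset was 7.99% in 28 dense peaks (4.13% to 12.6%), and elsewhere 5.94% in 351 (5.14% to 6.48%), so the intervals overlap.

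The height of a summit, the number of 88-bp fragments stacked on it, was recovered from the deposited fold and the local background, and came out within 0.1 of a whole number for 370 of the 379 peaks. The dense peaks were 27 to 133 fragments high, with a median of 45 (quartiles 39 and 55), against a median of 10 (quartiles 8 and 14) in compact peaks with fewer tags. The highest was chr3:196625582-196625815 at 133 fragments, 75.6% of the 176 that 1 tag per position and strand allows. The next was chr11:51584586-51585122 at 131, followed by 2 peaks on chromosome 9, each of 115 fragments. For chr2:33141255-33141736, with the most tags, no height could be recovered, since its score is at the maximum.

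Dividing height by tags gives the share of a peak's tags that pile up under its summit. It was a median of 46.6% in the dense peaks (quartiles 42.7% and 51.8%), where tags spread evenly over the length would give 15.7%. Over all compact peaks with fewer tags the median was higher, at 50%, and an even spread over these shorter peaks would give 22.1%. The summit is the highest point of a peak, so its share lies above an even spread in advance. Nothing is read from either gap. At 500 to 600 bp the order turned round: 45.5% in 311 dense peaks, against 39.5% in 4607 peaks with fewer tags, a difference of 5.98 percentage points (5.25 to 6.97). Peaks of 601 to 2000 bp with 80 or more tags had a median of 30.0%. Within 500 to 600 bp the dense peaks were still the longer ones, with a median of 567 bp against 542 bp for peaks with fewer tags.

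Among the dense peaks this share fell with length (Spearman's rho -0.43 over 370 peaks, which share 1 library), and a group of 25 peaks stood above 60%. They were 6.76% of the 370, against 23.4% (5303 of 22643) of compact peaks with fewer tags. At 500 to 600 bp the shares above 60% were 1.61% and 0.586%. The highest value in a dense peak was that of chr9:44070495-44070909, where 83 of 92 tags (90.2%) lay under the summit. Close to it were chr16:35239428-35239928 at 87.9%, chr11:51571975-51572255 at 87.7% and chr9:70327233-70327623 at 86.3%. Beside long peak-free stretches, 9 of 27 dense peaks exceeded 60%, and elsewhere 16 of 343. Compact peaks with fewer tags also differed in this, with 46.1% beside such stretches and 22.7% elsewhere. At the other end, chr1:156186141-156186707 held 205 tags with a summit of 60 fragments, the lowest share at 29.3%. In chr20:26189727-26190316 the share was 30.0% of 237 tags and in chr9:72653052-72653592 31.4% of 245 tags. These last 3 were among the 6 dense peaks with 200 or more tags, and their summits of 60, 71 and 77 fragments were above the upper quartile of 55. At this end were also chr8:142096174-142096767 (29.3% of 92 tags) and chr1:39864133-39864727 (31.5% of 89 tags). The summits of this pair were low, at 27 and 28 fragments. The peaks at both ends were chosen after their values were seen.

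**Figure D3:**
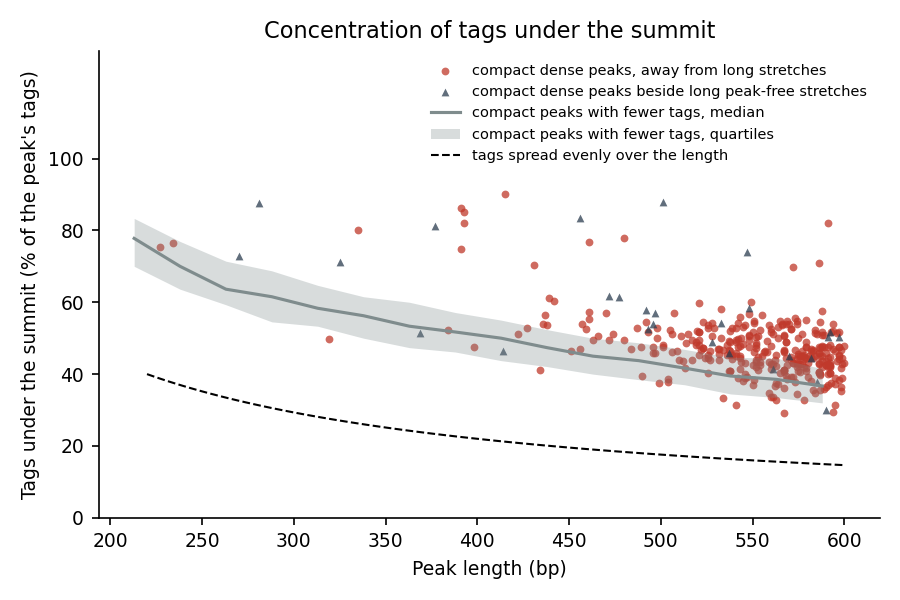
Share of a peak's tags under its summit (%) against peak length (bp) for the 370 compact dense peaks with a recovered height, as circles away from long peak-free stretches and triangles beside them. The grey line and band are the median and quartiles of compact peaks with fewer tags, and the dashed line is the share that evenly spread tags would give; at 500 to 600 bp most dense peaks lie above the grey median.

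Fold enrichment, the summit against the local background of 10 kb as the authors' caller gives it, had a median of 24.48 in the dense peaks (quartiles 18.51 and 29.16). It was 10.79 in compact peaks with fewer tags, 11.17 among those of 500 to 600 bp, and 15.47 in peaks of 601 to 2000 bp with 80 or more tags. The background stood at the genome minimum of 73.7 tags per 10 kb in 10.5% of compact peaks with fewer tags. This held for 0.296% of those of 500 to 600 bp and for 0 of 379 dense peaks. A fold of 20 or more was reached by 270 of 379 dense peaks (71.2%), where 9.84% of all peaks in the list and 6.29% of the compact peaks with fewer tags reach it. Tags chose these peaks and tags make the fold, so nothing is read from that count. The 3 highest folds were 65.59 at chr6:119558367-119558757 (115 tags), 64.36 at chr21:35778196-35778530 (80 tags) and 62.08 at chr2:230045377-230045807 (84 tags). The signal around these 3 was low, at 35.4, 34.1 and 25.1 tags per 10 kb, and 74.8%, 80% and 70.2% of their tags lay under the summit. Of the 379 peaks, 15 had a fold under 10, and each of these had another peak within 10 kb. Tags of such neighbours can count in the background that fold divides by.

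The median signal around the dense peaks was 113 tags per 10 kb (interval of the median 107 to 121, 370 peaks). Around compact peaks with fewer tags the median was 89.4. At 500 to 600 bp the sets were level, with 111.5 tags per 10 kb around dense peaks and 111.5 around peaks with fewer tags, a difference of 0.0823 (-5.52 to 7.46). Fold divides by a background that contains this signal, and over the dense peaks the rank correlation of both was -0.85. Tags per kb, in contrast, showed next to no rank correlation with the signal around (rho -0.048 over 370 peaks) or with the distance to the next peak (rho 0.0079 over 379). In the 131 dense peaks with under 100 tags per 10 kb around them the median fold was 29.76, and in the 19 with more than 400 it was 9.05.

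The 19 peaks in a high surround lay close to other peaks. Tags of nearby peaks count in the surround, so the measure and the closeness are not independent. These 19 held 81 to 285 tags, 11 of them lay beside a long peak-free stretch, 13 had another peak within 1 kb and every one had a peak within 10 kb. A median of 57.1% of their tags lay under the summit. Of the 370 dense peaks with a recovered value, they were 5.14% (3.12% to 7.90%), against 0.419% (95 of 22693, 0.339% to 0.512%) of compact peaks with fewer tags. At 500 to 600 bp the shares were 2.57% (8 of 311) and 0.585% (27 of 4616). Among peaks of 601 to 2000 bp with 80 or more tags the share was 6.36% (5.65% to 7.12%), so a high surround was not particular to the compact ones. Examples are the 3 peaks on chromosome 11 that start at 51571975, 51579243 and 51584586, with 106, 213 and 285 tags. The peak chr1:565504-565901 had the lowest fold of the 379, 3.51, with 99 tags, and 1480 tags per 10 kb around it.

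How the dense peaks compared in neighbours depended on the distance and the length. Another peak lay within 10 kb of 205 of 379 dense peaks (54.1%, 48.9% to 59.2%), against 10457 of 23468 peaks with fewer tags (44.6%, 43.9% to 45.2%). At 500 to 600 bp the shares were 53.5% (47.8% to 59.0%) and 56.3% (54.9% to 57.7%), a difference of -2.83 percentage points (-8.66 to 2.93). Within 2 kb, 16.7% (12.7% to 21.2%) of the dense peaks of that length had a neighbour, against 24.0% (22.8% to 25.3%) of those with fewer tags. Within 1 kb the shares at that length were 9.43% (6.46% to 13.2%) and 18.4% (17.3% to 19.5%), so at these short distances the dense peaks had fewer neighbours, with intervals apart. Over all lengths the shares within 1 kb were 12.1% and 12.9%. Within 2 kb they were 19.0% (15.2% to 23.3%) and 17.0% (16.5% to 17.5%), so fewer close neighbours were not seen over all lengths. The median distance from a dense peak to the nearest other peak was 8.98 kb (7.64 to 10.2 kb), with quartiles of 2.94 and 22.05 kb, against a median of 12.1 kb for peaks with fewer tags. For peaks of 601 to 2000 bp with 80 or more tags it was 6.67 kb. Of the dense peaks, 370 had another peak within 100 kb.

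**Figure D4:**
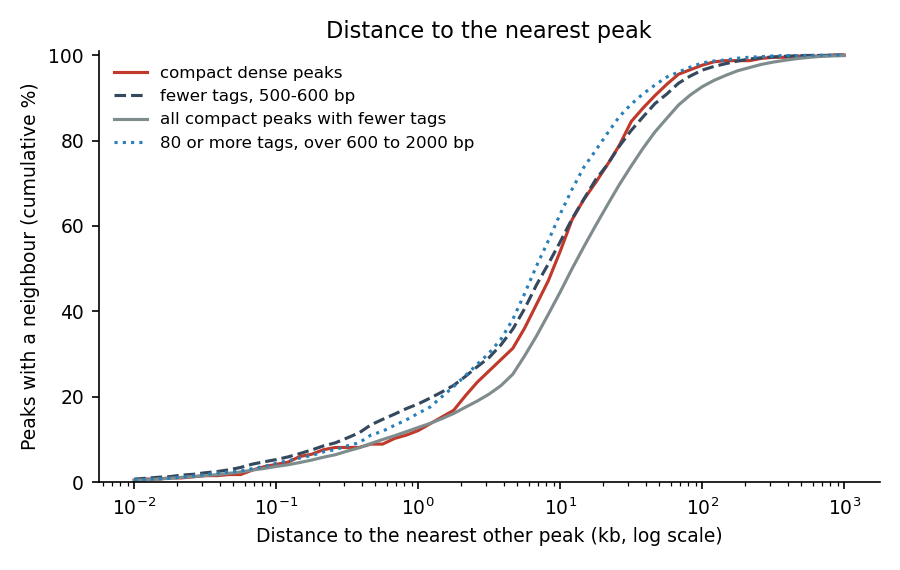
Cumulative share of peaks (%) with another peak of the list within a given distance (kb, log axis, edge to edge), for compact dense peaks, peaks with fewer tags of 500 to 600 bp, all compact peaks with fewer tags, and peaks of 601 to 2000 bp with 80 or more tags. At 10 kb the curves stand at 54.1%, 56.3%, 44.6% and 62.8%.

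In 54 of the 205 dense peaks with a neighbour within 10 kb that neighbour held more tags, and in 100 it was longer than 600 bp. The median neighbour had 55 tags and a length of 586 bp, against 31 tags and 489 bp for the neighbours of compact peaks with fewer tags. These medians were not compared at matched length. Among dense peaks of 500 to 600 bp, 26.1% (21.4% to 31.3%) had a nearest peak over 600 bp within 10 kb. For peaks with fewer tags of that length it was 22.3% (21.2% to 23.6%), so the intervals overlap. Of all 35185 autosomal peaks, 5296 reach the limit of 80 tags. The part of that limit in the count of 54 was not tested. In 3 pairs within 10 kb both peaks were dense and each was the nearest peak of the other. Dense peaks that lay close together but had a nearer peak are not among these pairs. Examples are those on chromosome 20 that start at 26188667 and 26189727, with nearest peaks 116 and 76 bp away. On chromosome 21 the pair from 34752042 to 34752638 and from 34752768 to 34753305, with 97 and 93 tags, was separated by 129 bp. On chromosome 6 the pair starting at 61912802 and 61913315 held 107 and 122 tags with 144 bp between them, beside a long peak-free stretch. On chromosome 9 the pair starting at 130768126 and 130769749 held 84 and 80 tags with 1089 bp between. Dense peaks with no other peak within 10 kb had a median fold of 27.30 (174 peaks), and those with one a median of 20 (205 peaks), while their median densities were 173 and 174 tags per kb. A neighbour's tags can be part of the background in that fold.

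The 3 most remote dense peaks held 88, 117 and 88 tags, against a median of 95. The nearest peak to chr1:163291404-163291929 (88 tags, 167 tags per kb, fold 27.22) was 760 kb away. For chr1:221340079-221340669 (117 tags, fold 29.55) the distance was 390 kb, and for chr6:141804740-141805276 (88 tags, fold 20.98) it was 284 kb. From 40.9% to 45.5% of their tags lay under the summit, below the median of 46.6% over the dense peaks.

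Dense peaks lay beside the long peak-free stretches more often than compact peaks with fewer tags, at 28 of 379 (7.39%, 4.97% to 10.5%) against 734 of 23468 (3.13%, 2.91% to 3.36%). At 500 to 600 bp the shares were 4.72% (15 of 318, 2.66% to 7.66%) and 2.79% (132 of 4736, 2.34% to 3.30%), with intervals that overlap. The 28 peaks had a median length of 514.5 bp (477 to 561) against 560 bp (553 to 567) in the others, and a density of 197 (172 to 256) against 172 (169 to 178) tags per kb, so the intervals of both overlap. Their median fold was lower, at 15.46 against 24.64, and the signal around them higher, at 333 against 112 tags per 10 kb. Another peak lay within 1 kb of 14 of the 28, and within 1 kb of 32 of the other 351. The part of the higher surrounding signal in these values was not tested.

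The dense peaks were spread over every autosome, with 6 on chromosomes 13 and 22 each and 42 on chromosome 1. Their share of the compact peaks lay between 0.898% on chromosome 5 (12 of 1337, 0.465% to 1.56%) and 3.19% on chromosome 21 (10 of 313, 1.54% to 5.80%). Chromosome 20 followed with 2.51% (18 of 716). The interval of chromosome 5 was the only one of 22 that left out the autosomal share of 1.59%. Without the peaks beside long stretches no interval did. With a limit of 60 tags chromosome 21 alone stood out, and with 100 tags chromosome 20 alone. Per Mb of the span between first and last peak, chromosome 19 had 0.356 dense peaks and chromosome 13 had 0.0629. Compact peaks differed as well, with 1143 over 59.0 Mb on chromosome 19 and 651 over 95.4 Mb on chromosome 13. The dense shares of these were 1.84% and 0.922%, both with intervals that include the autosomal share. The median density within a chromosome lay between 160 tags per kb on chromosome 19 and 206 on chromosome 9. Chromosomes are not replicates.

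**Figure D5:**
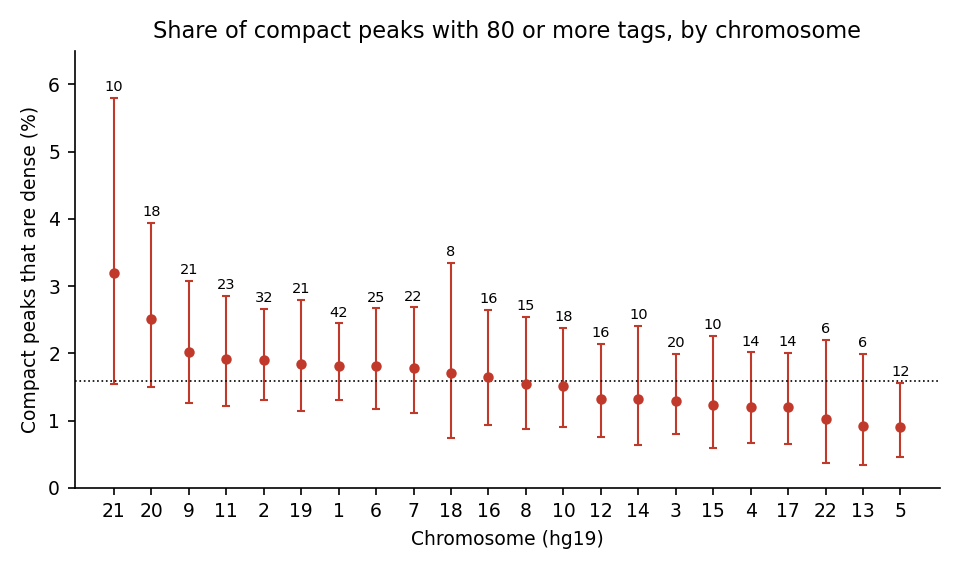
Share of compact peaks with 80 or more tags (%) on each autosome of hg19, ordered from high to low, with 95% exact Clopper-Pearson intervals and the number of dense peaks above each. The dotted line is the autosomal share of 1.59%, which the interval of chromosome 5 alone leaves out.

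The densest peak of each chromosome showed how uneven the top was. Outside the peaks already named it was, on chromosome 5, chr5:71146694-71147120 with 157 tags (368 tags per kb, fold 41.55). On chromosome 8 it was chr8:70602112-70602653 with 187 tags (345 tags per kb, fold 40.18), and on chromosome 16 chr16:87929761-87930244 with 145 tags (300 tags per kb when rounded, fold 23.70). On chromosome 14 it was chr14:75690354-75690922 with 158 tags (278 tags per kb), on chromosome 4 chr4:170331941-170332354 with 114 tags (275 tags per kb) and on chromosome 7 chr7:38402116-38402660 with 147 tags (270 tags per kb when rounded). The summits on chromosomes 4, 16 and 7 were 1.5, 22.5 and 64 bp from the centre.

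On chromosomes 10, 13, 15, 19, 21 and 22 the densest peaks were much alike, with 255 to 259 tags per kb. They were chr10:98561191-98561723 (136 tags), chr13:105521794-105522312 (133 tags), chr15:94717555-94718080 (136 tags), chr19:18589593-18590176 (151 tags), chr21:46533859-46534410 (142 tags) and chr22:46684132-46684728 (154 tags). The fold of these 6 lay between 26.62 and 48.26, the highest at chr10:98561191-98561723, whose summit was 79 fragments high. The lowest of the chromosome maxima was chr18:2883307-2883828, with 111 tags and 213 tags per kb. Of the 1-Mb windows, 275 held 1 dense peak, 46 held 2 and 4 held 3. A window with 3 was found on chromosome 2 (starting at 112 Mb), chromosome 7 (74 Mb), chromosome 11 (51 Mb) and chromosome 19 (18 Mb). The 3 on chromosome 11 held 604 tags together and lay beside a long peak-free stretch.

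The limits of the set cut through a continuum. Just inside the tag limit, 79 dense peaks with 80 to 84 tags showed a median density of 148 tags per kb and a median fold of 21.76, and the 112 compact peaks with 75 to 79 tags had 144 tags per kb and a fold of 21.92. Across the length limit, the 99 dense peaks of 581 to 600 bp had 166 tags per kb and a fold of 23.18, and the 124 peaks of 601 to 620 bp with 80 or more tags had 157 tags per kb and a fold of 22.66. Their summit offsets were 5.51% and 5.79% of the length.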

How the data were processed

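The deposited peaks of JMJD1C in Kasumi-1 cells were used. Per the file headers, the authors called peaks with MACS 1.4.2 without a control, with a p-value cutoff of 1e-05, a fragment size of 88 bp and 1 tag kept per position, which removed 32.2% of the tags. Per the submitters' processing notes, Bowtie2 2.1.0, HOMER and hg19 were used. The deposited columns are whole tag counts, a score (10 times the negative log10 p-value), a fold enrichment as a ratio, and positions. Counts are not normalised.

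The local background was solved from tags and score through the Poisson tail and kept where it was within 0.05 of a whole number per 10 kb, or within 0.15 of the genome minimum of 73.7. The signal around a peak is this background less the peak's own tags, scaled from the remaining bases to 10 kb, and includes tags of nearby peaks. Summit height is fold times background over 88 bp, kept within 0.1 of a whole number, which 20% of arbitrary values would meet; 9 dense peaks had no usable value. Distances run edge to edge to the nearest peak of the whole list. A long stretch is at least 3 Mb without a peak. The limits of the set and the measures were chosen with earlier results of these data known. Peaks are named by rule: the 10 with the most tags per kb, the 3 highest or farthest by tags, fold, distance and summit offset, and the densest on each chromosome. Any other peak named was chosen after its values were seen. Intervals are 95% exact Clopper-Pearson, exact Poisson or order-statistic, and those of differences combine both sets' intervals. The computation was tested on data simulated with the same formulas, at backgrounds below the highest recovered here. That test cannot show how the caller computed its values. Tables were handled in pandas 2.3.3 and NumPy 2.4.6 under Python 3.11.15, intervals came from SciPy 1.17.1, and figures from Matplotlib 3.10.9.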

Additional observations from a re-analysis of the deposited data

How the results depend on the processing

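Of 65 values under 10 alternatives, 40 stayed within the interval of the reported value or within 1.5 times the reported count, 23 moved and 2 turned round. With limits of 60 and 100 tags the dense share of compact peaks was 4.40% and 0.616%, the median density 141 and 216 tags per kb, and the median fold 21.55 and 27.58. With a length limit of 500 bp these were 0.323%, 215 tags per kb and 25.96, the summit offset was 9.12%, the share of tags under the summit 53.8%, the signal around 125 tags per 10 kb, and 0 chromosomes stood out. With only peaks scoring 100 or more, the dense share was 4.28%, 37.4% of dense peaks had a neighbour within 10 kb, the median distance was 13.9 kb and 2 chromosomes stood out; fewer peaks were left to be neighbours. Without peaks beside long stretches 0 chromosomes stood out, and with X and Y 2 did. Neighbours within 2 and 50 kb were found for 19.0% and 91.6%, and the difference from peaks with fewer tags was 1.99 percentage points within 2 kb. At lengths of 500 to 600 bp in both sets the neighbour difference was -2.83 percentage points (-8.66 to 2.93). The difference in tags under the summit was 5.98 percentage points (5.25 to 6.97). Both turned round in sign, but the interval of the neighbour difference includes 0. The difference in the signal around was 0.0823 tags per 10 kb. The cause was not tested. The comparisons of tags under the summit and of fold at 500 to 600 bp were chosen after seeing the data. The caller's limit of 1 tag per position and strand caps the height of a pile. No paired analysis was possible because a single peak list, with no second group of samples, is described.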

Other observations

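Chromosomes X and Y, which lie outside the set, held 15 peaks of 600 bp or less with 80 or more tags. On Y there were 8 among 157 compact peaks (5.10%, 95% exact interval 2.23% to 9.79%), each within 1 Mb of a long peak-free stretch. On X there were 7 among 696 (1.01%, 0.405% to 2.06%), 3 of them beside such a stretch. The share of all compact X and Y peaks beside such a stretch is not given here, so nothing is read from these counts. The peak chrY:13842591-13842890 held 270 tags in 300 bp, or 900 tags per kb, with a summit of 149 fragments, above every value recovered in the dense autosomal peaks. On X, the 3 peaks that start at 61814925, 61841860 and 61870620 had 86.4%, 89.02% and 92.6% of their tags under the summit, against a median of 46.6% in the dense autosomal peaks. Away from the stretches, chrX:119631725-119632295 had 80 tags, 40% of them under the summit, and a signal around it of 31.8 tags per 10 kb.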
